A study of Mus musculus with 6 samples.

Results

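The SLAM family is represented here by 8 genes, the cell surface receptors Slamf1, Slamf6, Slamf7, Cd244a, Cd48, Cd84 and Ly9 and the adaptor Sh2d1a. The members were all probe sets whose only symbol in the array's annotation is one of these genes, which gave 14 of the 45101 probe sets on the array and covered 8 of the 8 genes. The arrays were 6 in number: 3 of mouse T cells titled 2D11, replicates 1, 2 and 4, labelled CD8aa Tregs, and 3 of T cells titled OvacD8, replicates 1, 2 and 3, labelled OT-1 CD8aa+TCRab+ T cells. According to the series, both groups carry the alpha beta T cell receptor and the CD8 alpha homodimer, and the regulatory cells see antigen on the class Ib MHC molecule Qa-1. OT-1 names a transgenic receptor for an ovalbumin peptide. The cells of both groups are labelled as clones and were cultured as lines with IL-2, their antigen and cells that present it. Each group may hold repeats of 1 line only, and a p-value here reflects the spread among these arrays, some or all of which may be technical. The labels give no strain, sex, age or time after stimulation.

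SLAM receptors are immunoglobulin-like proteins of blood cells. Most bind a second copy of themselves on a neighbouring cell, while Cd244a (2B4) binds Cd48. Except for Cd48, which has a lipid anchor and no tail, these receptors carry tyrosine motifs in their tails that recruit SAP, the product of Sh2d1a, or its relative EAT-2, the partner of Slamf7. SAP brings in the kinase Fyn. Without their adaptors the motifs recruit phosphatases and can turn inhibitory. The family is known for its part in killing by NK and CD8 T cells, in contacts between T and B cells, and in the thymic selection of NKT cells, in which signals through Slamf1 and Slamf6 take part.

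Among the 8 genes, 4 had at least 1 probe set that passed the test, and the upstream sequences of these are shown because they are the genes on which the results turn, of which 1 was higher and 3 were lower in 2D11. Each run is the 250 bases before the gene's start, written in the direction of the gene, from RefSeq on GRCm38.p6, in which 6 of the 8 members had an entry. Capitals mark 3 motifs searched on both strands: the RUNX core TGTGGT, the T-box core GGTGTG and the TCF/LEF core CTTTGA, or their reverse complements.
Slamf6, chr1:171917212-171917461, plus strand: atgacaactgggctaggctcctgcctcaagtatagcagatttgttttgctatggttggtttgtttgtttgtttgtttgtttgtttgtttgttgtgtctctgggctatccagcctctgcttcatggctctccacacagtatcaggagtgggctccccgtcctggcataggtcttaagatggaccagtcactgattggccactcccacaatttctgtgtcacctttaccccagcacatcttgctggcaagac
Slamf7, chr1:171649000-171649249, minus strand: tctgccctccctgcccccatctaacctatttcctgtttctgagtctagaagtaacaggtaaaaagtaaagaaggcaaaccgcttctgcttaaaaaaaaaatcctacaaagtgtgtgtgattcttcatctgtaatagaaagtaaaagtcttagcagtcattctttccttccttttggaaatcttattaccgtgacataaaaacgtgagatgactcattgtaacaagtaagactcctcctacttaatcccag
Cd244a, chr1:171558943-171559192, plus strand: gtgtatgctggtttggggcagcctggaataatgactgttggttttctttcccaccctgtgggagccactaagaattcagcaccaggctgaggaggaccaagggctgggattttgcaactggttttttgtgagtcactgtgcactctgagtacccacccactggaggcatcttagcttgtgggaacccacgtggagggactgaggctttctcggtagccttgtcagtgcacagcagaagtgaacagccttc
Cd48, chr1:171681742-171681991, plus strand: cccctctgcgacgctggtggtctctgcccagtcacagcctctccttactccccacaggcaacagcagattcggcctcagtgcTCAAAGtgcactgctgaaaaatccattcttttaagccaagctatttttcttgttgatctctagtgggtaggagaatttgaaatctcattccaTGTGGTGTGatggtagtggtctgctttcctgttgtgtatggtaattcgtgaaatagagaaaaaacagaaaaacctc
Of all 32851 windows of this length, 14.0% hold the RUNX letters, 16.3% the T-box letters and 13.8% the TCF/LEF letters. The Cd48 window held each of them once, the RUNX match 76 to 71 bases before the start, the T-box match 73 to 68 bases before it and overlapping the RUNX match, and the TCF/LEF match on the opposite strand 168 to 163 bases before it. None of the 3 motifs was found in the Slamf6, Slamf7 and Cd244a windows. Of the members that did not pass, Cd84 held the RUNX letters as well, 45 to 40 bases before its start. The Slamf1 window held none of the 3 motifs. The G and C share was 38% in the Slamf7 window, against 48.4% for Slamf6, 53.2% for Cd244a, 46% for Cd48 and a median of 52.4% over all windows.

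The deposited values were taken as log2 values, as the log base is not given, and every fold here rests on that. They are centred on the median of the 6 arrays for every probe set. Such values show how arrays differ and not how bright a probe set was. Levels of different members can therefore not be compared, and it cannot be read whether a member was at background in one group. A further trait of centring is that where groups do not overlap, the 2 arrays nearest the gap take values of equal size and opposite sign. The groups were compared for each probe set with limma, Benjamini-Hochberg adjustment ran over the 45037 probe sets that are not array controls, and a probe set passed at an adjusted p under 0.05. Of these, 1827 probe sets (4.06%) passed, 902 higher (2.00%) and 925 lower (2.05%) in 2D11, while 676 higher and 1112 lower passed after quantile normalization. OvacD8-1 stood apart from its group. Across probe sets spanning at least 0.1 it correlated with OvacD8-2 and OvacD8-3 at 0.298 to 0.353, against 0.855 between those 2 arrays and 0.614 to 0.671 among the 2D11 arrays.

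Of the 14 member probe sets, 2 were higher in 2D11, both of Slamf6, and 3 were lower, those of Slamf7, Cd244a and Cd48. These 5 of 14 stand beside 4.06% of all probe sets, and they are the same 5 that passed with a difference of at least 2-fold (2.32% of all probe sets). The groups did not overlap in 7 of 14 member probe sets, beside 20.3% of all; 3 of these were higher in 2D11 (11.7% of all) and 4 lower (8.54% of all). The median difference of the 14 was -0.15 on the log2 scale, against 0.0076 over all probe sets tested. The members were proposed with results of these arrays known, so the share that passed is a description of the family and no test of it.

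**Figure D1:**
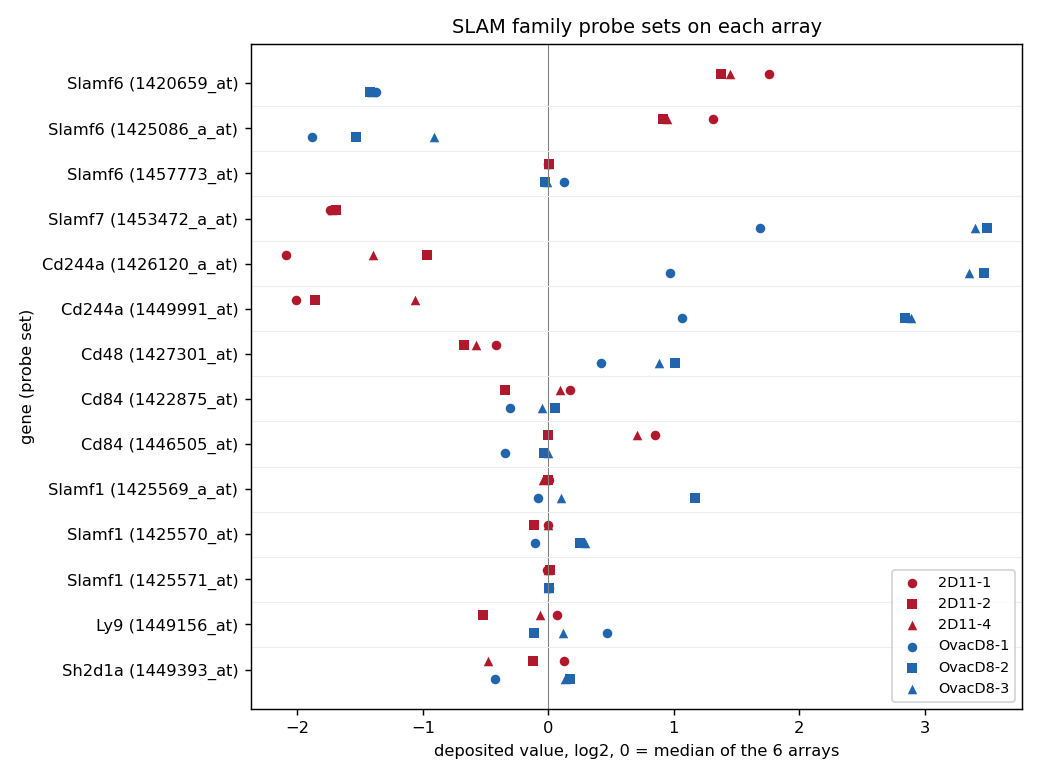
Deposited log2 value (x axis, 0 is the median of the 6 arrays) of each SLAM family probe set (rows) on each array, 2D11 in red and OvacD8 in blue. Slamf6 lies to the right in 2D11 in 2 of its 3 probe sets, whereas Slamf7, Cd244a and Cd48 lie to the left in 2D11, with OvacD8-1 between the 2D11 arrays and the other OvacD8 arrays.

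Slamf6 (Ly108), a receptor of T, NK and B cells that binds itself, was higher in 2D11. Probe set 1420659_at stood at 1.75, 1.37 and 1.44 on 2D11 replicates 1, 2 and 4, against -1.37, -1.42 and -1.40 on OvacD8 replicates 1, 2 and 3. The groups lay 2.75 apart at their nearest arrays, and the OvacD8 arrays differed by 0.045 among themselves. The difference was 2.92 ± 0.11 on the log2 scale (SE, n = 3 per group; limma adjusted p = 0.000686), or 7.58-fold, and only 0.635% of all probe sets had a difference as large or larger. In bulk RNA such as this, fewer cells with a transcript and less of it per cell cannot be told apart.

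A second Slamf6 probe set, 1425086_a_at, stood at 1.31, 0.91 and 0.94 on the 2D11 arrays, against -1.88, -1.54 and -0.91 on the OvacD8 arrays. Here OvacD8-1 was the lowest array and OvacD8-3 the highest of its group, and the groups again did not overlap. The difference was 2.50 ± 0.28 (limma adjusted p = 0.0175), a fold of 5.65. The third probe set, 1457773_at, spanned 0.15 over the 6 arrays, with a difference of -0.03 and a 95% interval of -0.15 to 0.09. The Slamf6 probe sets thus disagreed, and the files do not say which transcripts or parts of the gene each one reads. As the mean of the 3, Slamf6 was higher by 1.80 (adjusted p = 0.00168 in a fit over genes).

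Slamf7 (CRACC, CS1), a receptor of NK cells, activated CD8 T cells, B cells and macrophages that binds itself, gave the largest difference of the family. Its only probe set, 1453472_a_at, stood at -1.74, -1.69 and -1.72 on 2D11 replicates 1, 2 and 4, against 1.69, 3.50 and 3.40 on OvacD8 replicates 1, 2 and 3. The 2D11 arrays lay within 0.050 of each other, while the OvacD8 arrays spanned 1.81 with OvacD8-1 lowest, and the nearest arrays of the groups were 3.38 apart. Slamf7 was lower in 2D11 by -4.58 ± 0.53 (SE, n = 3 per group; limma adjusted p = 0.0188), a 23.9-fold difference. By size this was number 73 of 45037 probe sets.

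Cd244a, which encodes 2B4, the receptor for Cd48 on NK cells and activated CD8 T cells, was lower in 2D11 in 1 of its 2 probe sets. Probe set 1449991_at stood at -2.01, -1.86 and -1.06 on the 2D11 arrays, against 1.06, 2.84 and 2.89 on the OvacD8 arrays. The difference was -3.91 ± 0.61 (limma adjusted p = 0.0412), or 15.0-fold, and the groups did not overlap. Probe set 1426120_a_at stood at -2.09, -0.97 and -1.40 on the 2D11 arrays, against 0.97, 3.47 and 3.35 on the OvacD8 arrays. Its groups did not overlap either and its difference was as wide, -4.08 ± 0.80, but the wider spread on both sides left it short of the threshold (adjusted p = 0.0731). Both probe sets ranked among the largest differences of the array by size, at numbers 111 and 97.

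Cd48, the lipid-anchored ligand of 2B4 and of CD2, found on most blood cells, was lower in 2D11 by a smaller amount. Probe set 1427301_at stood at -0.42, -0.67 and -0.58 on 2D11 replicates 1, 2 and 4, against 0.42, 1.01 and 0.89 on OvacD8 replicates 1, 2 and 3. The nearest arrays of the groups were 0.84 apart, and OvacD8-1 was again the lowest of its group. The difference was -1.33 ± 0.18 (limma adjusted p = 0.0271), or 2.51-fold. The receptor 2B4 and its ligand were thus both on the lower side in 2D11.

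**Figure D2:**
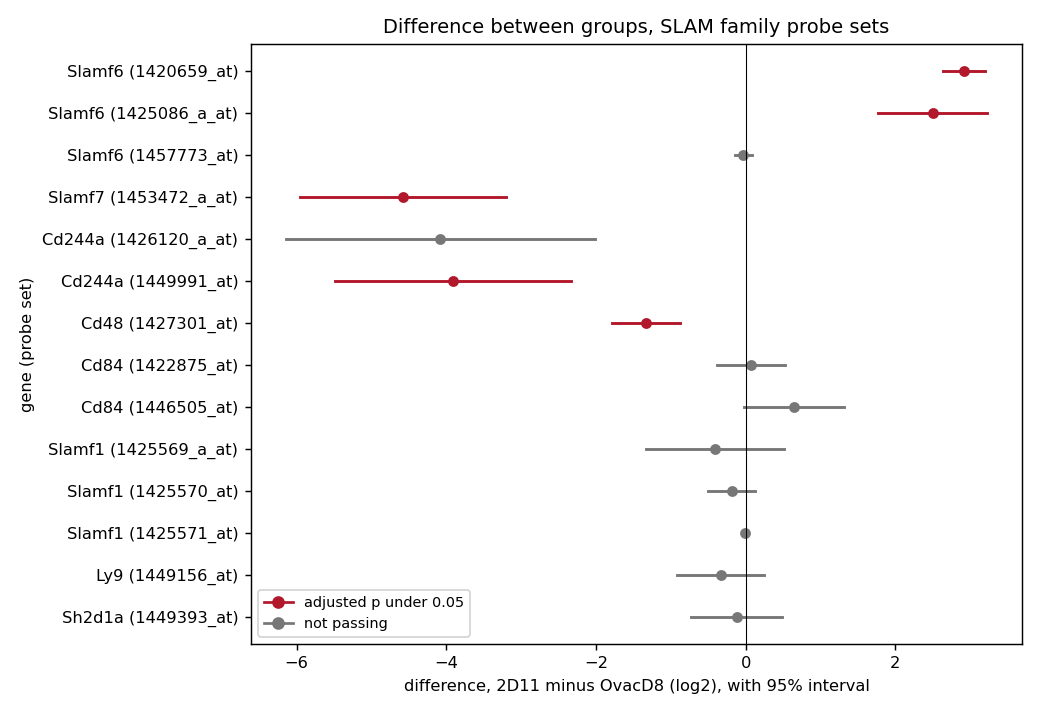
Difference between the groups (2D11 minus OvacD8, log2) for each SLAM family probe set with its 95% interval, in red where the adjusted p was under 0.05. The 2 Slamf6 probe sets at 2.92 and 2.50 lie right of 0, Slamf7, Cd244a and Cd48 lie left of it between -4.58 and -1.33, and the intervals are not adjusted for the number of probe sets.

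The other 4 members had no probe set that passed. Cd84, a receptor that binds itself and acts in T cell contacts with B cells, had a difference of 0.65 in probe set 1446505_at, with a 95% interval of -0.02 to 1.32 (adjusted p = 0.328). That probe set stood at 0.85, 0.00059 and 0.71 on the 2D11 arrays, against -0.35, -0.038 and -0.00059 on the OvacD8 arrays, so that 2D11-2 all but met OvacD8-3. The other Cd84 probe set, 1422875_at, had a difference of 0.07 (95% interval -0.38 to 0.53), with overlapping groups.

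Slamf1 (CD150), a receptor of activated lymphocytes that binds itself, differed by -0.41 (95% interval -1.33 to 0.51) in probe set 1425569_a_at. The 2D11 arrays lay between -0.043 and 0.0053, and OvacD8 replicates 1, 2 and 3 at -0.08, 1.17 and 0.10, so the difference rested on OvacD8-2; without it the difference was -0.024. In probe set 1425570_at the values were 0.00014, -0.11 and -0.00014 on the 2D11 arrays, against -0.10, 0.26 and 0.29 on the OvacD8 arrays, a difference of -0.18 (95% interval -0.50 to 0.13). Without OvacD8-1 this became -0.31 and passed (adjusted p = 0.0322). The third probe set, 1425571_at, spanned 0.024 over all 6 arrays, and 34.4% of all probe sets spanned less than 0.1.

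Ly9 (CD229), a receptor that binds itself on T and B cells, stood at 0.07, -0.52 and -0.07 on the 2D11 arrays, against 0.47, -0.12 and 0.12 on the OvacD8 arrays. These overlapped, and the difference was -0.33 (95% interval -0.91 to 0.25). Sh2d1a, the gene of the adaptor SAP, lies on the X chromosome, apart from the receptors. It stood at 0.12, -0.12 and -0.48 on the 2D11 arrays, against -0.42, 0.17 and 0.13 on the OvacD8 arrays, a difference of -0.12 with a 95% interval of -0.73 to 0.49 (adjusted p = 0.921). The groups overlapped, and the interval lies within 2-fold in either direction.

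The lower members shared the place of OvacD8-1. For Slamf7 that array lay 3.41 above the mean of the 2D11 arrays, where the mean of OvacD8-2 and OvacD8-3 lay 5.17 above it. The same distances were 2.71 and 4.51 for Cd244a probe set 1449991_at, 2.45 and 4.90 for probe set 1426120_a_at, and 0.97 and 1.50 for Cd48. OvacD8-1 thus stood at 50.0% to 65.9% of the distance of its group mates on the log2 scale. Slamf6 probe set 1420659_at did not share this, with OvacD8-1 at -2.90 and the other OvacD8 arrays at -2.93 from the 2D11 mean. Over all 925 probe sets that were lower in 2D11, OvacD8-1 lay below both other OvacD8 arrays in 509 (55.0%).

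Some markers in the lists of macrophages and dendritic cells and of B cells, which could be in the cultures, also set OvacD8-1 apart. The NK and T cell lists that follow are given by group and not as signs of other cells. Of 12 probe sets for 10 genes of macrophages and dendritic cells, OvacD8-1 lay at least 1 above every other array in 5. These were of Csf1r (1419872_at), Fcer1g, Fcgr3, Lyz2 and Tyrobp. The other Csf1r probe sets, 1419873_s_at and 1423593_a_at, stood at 0.15 and 0.43 on OvacD8-1. Adgre1, Itgam and Flt3 stood at 0.0065, 0.012 and 0.010 on that array. Cd68 and Cd14 of the same list went another way, with OvacD8-1 below its group mates. Cd68 stood at -0.71, -0.51 and -0.48 on 2D11 replicates 1, 2 and 4, against 0.48, 3.34 and 3.44 on OvacD8 replicates 1, 2 and 3. Cd14 stood at -0.20, -0.35 and -0.27 on the 2D11 arrays, against 0.20, 0.66 and 0.75 on the OvacD8 arrays. Fcgr3 stood between -0.017 and 0.048 on the 2D11 arrays, against 3.35, -0.12 and -0.10 on OvacD8 replicates 1, 2 and 3. The mean of these 12 probe sets ran from -0.09 to -0.01 over the 2D11 arrays and from 0.11 to 1.28 over the OvacD8 arrays, and none of them passed (limma, 2 at an unadjusted p under 0.05). For 13 probe sets of B cell markers the mean ran from -0.01 to 0.05 in 2D11 and from -0.21 to 0.72 in OvacD8, and none passed (limma, 0 at an unadjusted p under 0.05). Among them H2-Aa probe set 1435290_x_at stood between -0.042 and 0.074 on the 2D11 arrays, against 3.30, -0.23 and -0.86 on OvacD8 replicates 1, 2 and 3. Cd74 stood between -0.17 and 0.30 on the 2D11 arrays, against 2.15, -1.25 and -1.19 on the OvacD8 arrays, while 6 of the 13 probe sets, among them those of Cd79a, Cd79b and Pax5, spanned less than 0.1. On OvacD8-1 the probe sets of Cd79a, Cd79b, Pax5, Ms4a1 and Cd22 lay between -0.0067 and 0.011. The high mean of the B cell list on that array thus rested on H2-Aa and Cd74. Which cells these transcripts came from was not tested. The NK cell list of 7 probe sets ran from -0.88 to -0.77 in 2D11 and from 1.00 to 1.05 in OvacD8, with Gzma (-10.85) and Klre1 (-1.18) lower. Gzma weighs heavily in that mean, and the median difference of the list was -0.39. The other 5 probe sets did not pass, at 0.011 for Ncr1, 0.028 for Klra8, -0.39 for Nkg7, and -0.56 and -0.18 for Eomes. The T cell list of 16 probe sets ran from -0.22 to -0.06 in 2D11 and from 0.10 to 0.22 in OvacD8. It held 2 probe sets that were higher in 2D11, of Cd6 (1.85) and of Cd8a (0.85 in 1444078_at). The 3 that were lower were 2 of Cd247 (-1.09 and -1.24) and 1 of Cd8b1 (-2.36, limma adjusted p = 0.00142). Cd8b1, the gene of CD8 beta, lay between -1.48 and -1.07 on the 2D11 arrays. On the OvacD8 arrays it lay between 1.07 and 1.16. Another of the 5 Cd8a probe sets, 1440811_x_at, stood at -2.40 with groups that did not overlap and did not pass (adjusted p = 0.0636). Centring removes the level, so it cannot be read which of these markers were absent. The part of other cells in the differences of the SLAM genes was not tested. Without OvacD8-1 the differences were -5.17 for Slamf7, -4.51 for Cd244a (1449991_at), -1.50 for Cd48 and 2.93 for Slamf6 (1420659_at).

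**Figure D3:**
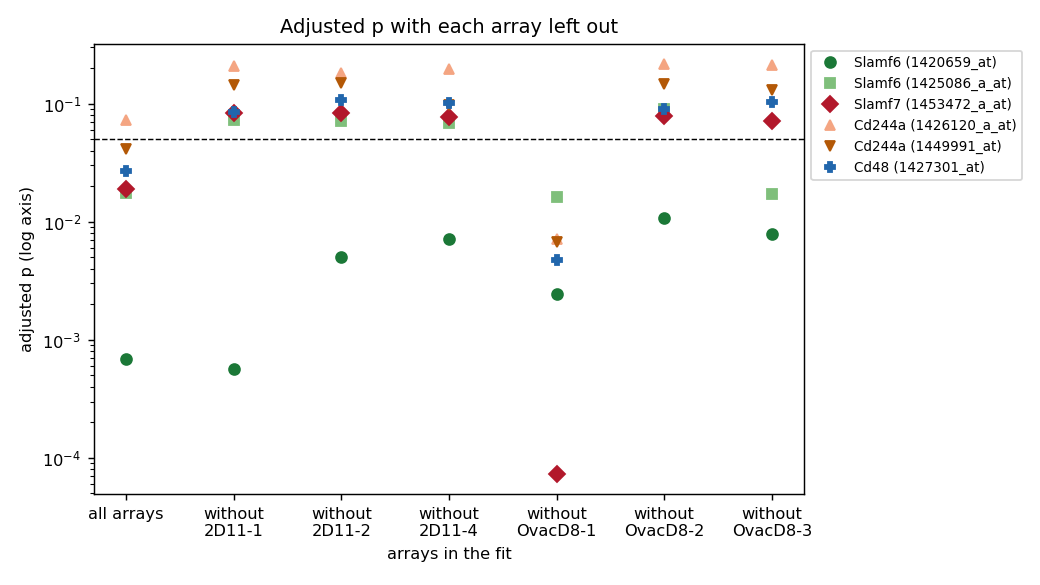
Adjusted p of 6 SLAM family probe sets (log axis) with all arrays and with each array left out, the dashed line marking 0.05. Slamf6 probe set 1420659_at stays below the line throughout, and Slamf7, Cd48 and Cd244a probe set 1449991_at lie below it with all arrays and without OvacD8-1 and above it in the other 5 fits.

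How firmly each member was called differed. Slamf6 probe set 1420659_at passed in 6 of 6 fits with 1 array left out (adjusted p from 0.000569 to 0.0108), with differences of 2.81 to 3.00. The other Slamf6 probe set, 1425086_a_at, passed in 2 of 6 (0.0162 to 0.0897). Slamf7 passed in 1 of 6 (7.33e-05 without OvacD8-1, up to 0.0838), Cd48 in 1 of 6 (0.00478 to 0.108) and Cd244a probe set 1449991_at in 1 of 6 (0.00678 to 0.149), each of them only without OvacD8-1. Their differences stayed between -5.17 and -4.26, between -1.50 and -1.21, and between -4.51 and -3.60 in these fits. Without OvacD8-1, Cd244a probe set 1426120_a_at was lower as well, by -4.90 (adjusted p = 0.00713). In that fit the groups coincide with a split by the poly-A spike-ins, bacterial transcripts added to follow labelling, whose mean lay between -0.09 and 0.73 on the 2D11 arrays and at 0.44 on OvacD8-1 but at -1.41 and -2.13 on OvacD8-2 and OvacD8-3. With that split entered in the model, the group difference is that of the 2D11 arrays from OvacD8-1 alone, which is assumed to vary as the other arrays do, so its calls add no support. The differences there were 2.90 and 2.94 for Slamf6, -3.41 for Slamf7, -0.97 for Cd48, and -2.71 (1449991_at, adjusted p = 0.0557) and -2.45 (1426120_a_at, 0.0872) for Cd244a. Centring each array on its median also left Cd244a probe set 1449991_at short of the threshold (adjusted p = 0.054).

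The 7 receptor genes lie in 1 block of chromosome 1 in the order Cd244a, Ly9, Slamf7, Cd48, Slamf1, Cd84 and Slamf6, by the RefSeq gene order of GRCm38.p6. Along that order the differences were mixed: Cd244a, Slamf7 and Cd48 were lower in 2D11 and Ly9 between them did not pass, while Slamf6, the last of the block, was higher. Of 18 other genes that RefSeq lists within the block or as the 5 nearest protein-coding genes on each side, 8 were measured, in 17 probe sets. None of the 17 passed (limma, 1 at an unadjusted p under 0.05), beside 4.06% of all probe sets, and their median difference was -0.04. With so few probe sets this count shows no difference between the neighbours and the rest of the array. The widest 2 genes were Pex19, a peroxisome biogenesis gene, at -1.03 in probe set 1455208_at (adjusted p = 0.0843), and the transcription factor gene Usf1 at -0.30 in probe set 1426164_a_at (adjusted p = 0.784).

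**Figure D4:**
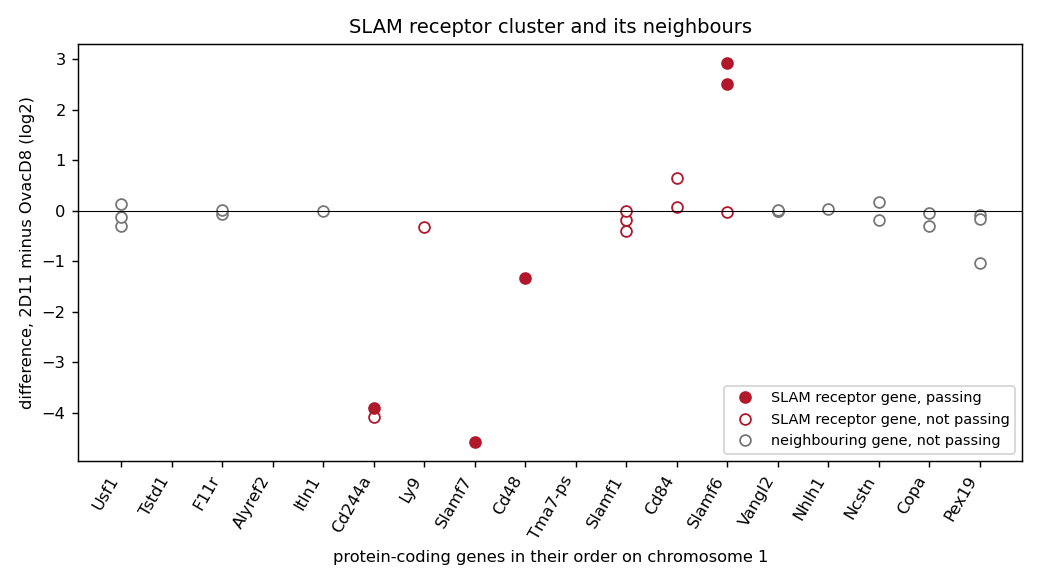
Difference between the groups (y axis, 2D11 minus OvacD8, log2) for each probe set of the SLAM receptor genes (red) and of their neighbours (grey), with protein-coding genes in chromosome order on the x axis. Filled points passed at an adjusted p under 0.05, and these belong to Cd244a, Slamf7, Cd48 and Slamf6, with 0 among the 17 probe sets of neighbours.

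Genes that act with the SLAM receptors passed at about the rate of the whole array. Of 27 signalling partners, 22 were measured in 43 probe sets, and 0 probe sets were higher and 2 lower in 2D11 (11 at an unadjusted p under 0.05). The 2 that passed are 4.65%, beside 4.06% of all probe sets, and the median difference was 0.0030. The share of all probe sets at the unadjusted threshold is not given, so the 11 cannot be set against it. Csk, the kinase that holds Src family kinases in check, was lower by -0.20 ± 0.03 (limma adjusted p = 0.0356), and passed in 0 of 6 fits with 1 array left out (adjusted p from 0.0502 to 0.131). Malt1, the paracaspase of the antigen receptor path to NF-kB, was lower by -0.73 ± 0.10 (adjusted p = 0.027) in 1 of its 3 probe sets, 1456126_at, and the other 2 stood at -0.04 and -0.0033. It passed in 2 of 6 such fits (0.0246 to 0.117). The 2 genes of widest range that did not pass were Plcg2, a phospholipase of receptor signalling in B and NK cells, at -0.93 (95% interval -1.55 to -0.30, adjusted p = 0.145), and Inppl1, the phosphatase SHIP2, at 0.59 (adjusted p = 0.41). Plcg2 passed without 1 array, and so did Inppl1 (lowest adjusted p = 0.0197 and 0.0344). For Fyn, the kinase that SAP brings to SLAM receptors, the probe sets stood at -0.10 and 0.09 (adjusted p = 0.801 and 0.78). Zbtb16 (PLZF), the transcription factor of NKT cells, had 3 probe sets at 0.01 to 0.09 that did not pass.

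Of 3 further relatives, Cd2, Slamf8 and Slamf9, none passed (limma, 0 at an unadjusted p under 0.05). Slamf8, a receptor of macrophages, stood between -0.0018 and 0.0058 on the 2D11 arrays, against 1.69, -0.018 and -0.0025 on OvacD8 replicates 1, 2 and 3, a difference of -0.55 (adjusted p = 0.764). OvacD8-1 was thus the high array for Slamf8 as it was for Csf1r and Tyrobp. For Cd68 and Cd14 it lay below its group mates instead. Which cells the Slamf8 transcript on OvacD8-1 came from was not tested. Cd2, the adhesion receptor that binds Cd48, differed by -0.23 (adjusted p = 0.753), with the 2D11 arrays between -0.16 and 0.14 and OvacD8 replicates 1, 2 and 3 at 0.60, 0.013 and -0.013.

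Over the 6 arrays, the genes nearest to each called member were found by the Euclidean distance between log2 values after each probe set's mean was subtracted, taking the member's probe set of widest range. Nearest to Slamf7 were Errfi1 (distance 0.50), Styk1 (0.55) and Rab11fip4 (0.55), with differences of -4.53, -4.34 and -4.18. For Cd244a this was 1426120_a_at, the probe set that did not pass, and nearest to it were Pdk1 (0.88), Olfm1 (0.93) and Esm1 (0.94). Nearest to Cd48 were Acp5 (0.12), Sc5d (0.19) and Slfn5 (0.22), and to Slamf6 (1425086_a_at) Hsd17b7 (0.21), Cep78 (0.52) and Ptger2 (0.52). Such nearness over 6 arrays in 2 groups is a description, and the distances grow with the size of the difference, so they cannot be set against each other between members.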

How the data were processed

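Gene expression was measured in 6 samples on 1-colour arrays of 45101 probe sets, 1 array per sample. Per the labels' protocols, RNA was extracted with an RNeasy kit, amplified with the Ovation system and biotin-labelled. The authors deposited RMA values, per the submitters' processing notes, and these were taken as log2 values; the RMA version and the log base are not given in the sources used here. The widest probe set spans 11.4, and natural logs of a 16-bit scanner would allow 11.1. Each probe set's median across arrays lay within 5e-07 of 0, a centring that no source explains. RMA draws dim probe sets together, so differences that start near background understate the change. Precision depends on the number of arrays, 3 per group.

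Sample titles gave the groups and replicate numbers. After 64 array controls were left out, 45037 probe sets were fitted by limma 3.58.1 in R 4.3.3 (two-sided moderated test, prior of 0.87 degrees of freedom), and adjusted by Benjamini-Hochberg. Differences are 2D11 minus OvacD8. Of the probe sets, 34945 had 1 symbol, 932 several and 9160 none listed; no member shared a probe set with another symbol, and the 14 members' symbols matched RefSeq by gene identifier. The fit was tested on simulated arrays of normal values with each probe set's own spread, the same in both groups. Changes were placed only in probe sets spanning at least 0.1. It called 39% of 100 probe sets changed by 1 on the log2 scale and 65% of 100 changed by 2. Of the 45037 probe sets, it also called 9 that were unchanged. The simulation held no outlying array such as OvacD8-1, so these rates need not hold for the arrays here. Python 3.11.15 with pandas 2.3.3 and numpy 2.4.6 was used for the rest.

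The members and gene lists were chosen with earlier results of these data known. Every member probe set is described. Of the signalling partners, further relatives and neighbours, genes that passed and the 2 widest others are named. Fyn, Zbtb16 and the cell type markers were named after their values were seen. Alternatives were each array left out, the replicate block, array weights, median centring, quantile normalization, a filter on range, a robust prior, the spike-in split, gene means, and leaving out probe sets ending in _x_at or _s_at. A filter on brightness and a background correction could not be run on centred values.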

Additional observations from a re-analysis of the deposited data

How the results depend on the processing

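With each array left out, 811 to 4773 probe sets passed over the whole array, 4773 of them without OvacD8-1 and at most 1013 otherwise. Of the SLAM members, 0 to 5 were lower and 1 to 2 higher, and of the signalling partners 0 to 5 differed. The 0 lower members arose in the 5 fits that kept OvacD8-1 (limma, 4 at an unadjusted p under 0.05 in each), and the cause was not tested. Counts at an unadjusted p are given, here and above, without the share of all probe sets at that threshold. They are therefore no comparison with the whole array. The replicate numbers 1 and 2 are shared by the groups, and the labels do not say whether same-numbered arrays were handled together. The deviations of same-numbered arrays from their group means correlated at -0.029 and 0.21. With only 2 such pairs this cannot settle whether the arrays were paired. With the replicate block 229 probe sets passed, 0 members were lower (5 at an unadjusted p under 0.05), 1 was higher (Slamf6 1420659_at, adjusted p = 0.0493) and 0 partners differed (5 at an unadjusted p under 0.05). Array weights gave 17219 probe sets, 5 lower members and 24 partners, but their estimation stopped before it converged and gave OvacD8-3 a weight of 19.0, against 0.23 for OvacD8-2. A filter on a range of at least 0.1 gave 2962 probe sets, quantile normalization 1 partner, and means over a gene's probe sets 1214 genes, 1 higher member and 1 partner. Median centring ended the call of Cd244a 1449991_at (adjusted p = 0.054), as the spike-in split did. Other counts stayed within 1.5 times. Quantile normalization and the filter on range also called Cd244a 1426120_a_at (adjusted p = 0.0419 and 0.0229).

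The sign of a difference turned in 16 cases, all but 1 of them for probe sets that did not pass with all arrays. Slamf6 1457773_at became 0.019 without OvacD8-1 (with a range of -0.058 to 0.019 over arrays left out), 0.0060 with array weights and 1.80 as the mean with the other Slamf6 probe sets. Cd84 1422875_at became -0.026 without 2D11-1 and -0.028 without OvacD8-1. Slamf1 became 0.068 in 1425569_a_at and 0.068 in 1425570_at with the spike-in split, and 0.0029 in 1425571_at without 2D11-1 (range -0.0093 to 0.0029). Sh2d1a became 0.040 without 2D11-4 (range -0.31 to 0.040), 0.13 with the block and 0.26 with the spike-in split. Slamf8 became 0.012 without OvacD8-1 (range -0.84 to 0.012), Cd2 0.11 with array weights, and Usf1 0.0041 with the block and 0.19 with the spike-in split. Cd8a 1444078_at, higher by 0.85, became -0.26 as the mean of its gene's probe sets. The cause of these changes was not tested. The main limits are the small number of arrays, the unlike OvacD8-1, and levels that centring removed.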
